A study of Mus musculus with 19 samples.

Results

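The genes described here are cytokines of the IL-1 and IL-6 type and the parts of the NLRP3 inflammasome, measured by bulk RNA-seq of retinal microglia in experimental choroidal neovascularization. The set was chosen by gene symbol and holds 10 names, namely *Il1a*, *Il1b*, *Il1rn*, *Il18*, *Il6*, *Il10*, *Nlrp3*, *Pycard*, *Casp1* and *Gsdmd*. Of these, 9 were analysed among the 27299 genes of the whole series, and *Il10* was not analysed here. Microglia are the resident macrophages of the retina. They were sorted from 6 samples taken on day 3 after argon laser treatment (CNV d3), which breaks the membrane under the retina so that choroidal vessels grow in, and from 6 samples of unlasered eyes (control). Each lasered retina had received 6 burns. Both groups shared the same background of C57BL/6J mice at an age of 8 weeks. According to the methods of the study, all mice carried a GFP reporter in place of 1 *Cx3cr1* allele (*Cx3cr1* GFP/+), so that cells of both groups had a single working copy of this receptor. The sorted cells carried CD11b and CX3CR1 and lacked Ly6C and Ly6G, surface markers of monocytes and neutrophils. The labels call them CD45+, and the methods describe them as low for CD45. Whether a sample pooled several animals is not given in the sources used here, so p-values measure the spread between these samples.

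The IL-1 cytokines IL-1α, IL-1β and IL-18 are made by macrophages and act on neighbouring cells through receptors that signal by the adaptor MyD88. IL-1β and IL-18 are stored as inactive precursors. They are cut by caspase-1 (*Casp1*) once a sensor such as NLRP3 joins the adaptor ASC (*Pycard*) into an inflammasome, and the same protease opens gasdermin D (*Gsdmd*), which forms pores in the cell membrane. IL-1α needs no inflammasome, and the receptor antagonist IL-1RA (*Il1rn*) occupies the IL-1 receptor without a signal. IL-6 acts through gp130 (*Il6st*) and STAT3. RNA levels show neither the cleavage of a precursor nor the release of a cytokine, and in bulk samples fewer cells of a type and less RNA per cell cannot be told apart.

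Depth and makeup of the samples bear on all results. The reads assigned to genes numbered 10963178 to 22335233 in the control samples and 23532260 to 29523018 at CNV d3, so every CNV d3 sample was deeper than every control sample. Genes with reads numbered 15076 to 17224 in the control samples and 18276 to 19116 at CNV d3. A single read was worth between 0.739 and 1.99 normalized counts, the unit used below, which are read counts scaled by a size factor for each sample. All 6 control samples were listed in 2 parts, as was CNV d3 replicate 4 alone. Markers said here to rise or fall had an adjusted p under 0.05 in the limma test described below. By this rule 8.29% of all genes rose and 4.57% fell. Among genes with a mean of at least 100 normalized counts, the shares were 15.3% and 10.8%. Counts of markers near these shares describe no change of a cell type. The 12 microglia markers tested were present in all samples. Their summed level was 1413587 to 1589249 in control and 781329 to 1167708 at CNV d3, and 8 of the 12 fell while 1, *Itgam*, rose. The summed level of 11 monocyte markers lay between 1014 and 2453 in control and between 6777 and 54311 at CNV d3, of which *Fn1* was the main part, and 7 of the 11 rose. Without *Fn1*, it lay between 1007 and 2403 in control and between 2867 and 6921 at CNV d3, and the highest sample was CNV d3 replicate 3. Its largest parts were *Cd44* (mean 1152 in control, 1749 at CNV d3) and *Ms4a4c* (411.4 and 1241), which had reads in every control sample. *Ccr2* rose from 34.2 to 664 and *Plac8* from 89.9 to 639.4, while *Vcan*, *F13a1*, *Chil3* and *Ifitm6* did not pass. This sum is thus not a measure of monocytes alone. The monocyte markers *Ly6c2* and *Chil3* were at 0 in all control samples and had means of 12.9 and 4.95 at CNV d3. Of 8 dendritic cell markers 4 rose, with sums of 166.6 to 579.1 in control and 520.2 to 2377 at CNV d3, and *Cd209a* was at 0 in all control samples. Neutrophil markers without *Csf3r*, a gene that microglia also express, summed to at most 26.39 in control and 40.26 at CNV d3, with *S100a9*, *Ngp*, *Camp*, *Ltf*, *Cxcr2* and *Mmp9* at 0 in all control samples. Lymphocyte markers summed to at most 30.45 in any sample, and *Cd3d*, *Cd3g* and *Cd8a* were at 0 in all control samples. Of 17 immediate response genes of handled cells, 3 rose and 1 fell, and their sums overlapped, with 15740 to 24398 in control and 15883 to 25457 at CNV d3. The 10 photoreceptor markers summed to between 786.9 and 6963 in control and between 617.6 and 12608 at CNV d3. Among 8 Müller glia and astrocyte markers 3 rose (*Apoe*, *Clu* and *Vim*) and 1, *Slc1a3*, fell. *Slc1a3* had means of 2117 in control and 1358 at CNV d3, while *Glul*, *Rlbp1*, *Aqp4* and *Gfap* did not pass. *Apoe* had means of 20865 in control and 68946 at CNV d3. The study describes *Apoe* as a regulator of the shift to disease-associated microglia. Its rise is thus not a measure of Müller glia and astrocytes alone. Among 6 endothelial markers 1 rose and 1 fell. Which share of a difference below came from such cells was not tested.

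To show the DNA before annotated starts of the most strongly changed cytokine genes, the 250 bases before a RefSeq transcript start are printed for *Il1b*, for its antagonist *Il1rn* and for *Il6*. They are from build GRCm38.p6 and run 5′ to 3′ on the strand of the gene. The capitals mark matches to 5 motifs searched on both strands. These were the TATA box (TATAAA), the NF-κB consensus of 10 bases, the AP-1 motif (TGANTCA), a C/EBP-like motif (TTGCNNAA) and the core of the PU.1 motif (GAGGAA). The matches printed do not overlap each other.
*Il1b*, chr2:129371140-129371389, minus strand: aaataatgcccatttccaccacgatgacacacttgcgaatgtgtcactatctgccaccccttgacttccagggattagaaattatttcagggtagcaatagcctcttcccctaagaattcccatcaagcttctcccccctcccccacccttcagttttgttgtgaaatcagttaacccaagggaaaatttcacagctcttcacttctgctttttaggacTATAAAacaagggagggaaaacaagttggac
*Il1rn*, chr2:24336610-24336859, plus strand: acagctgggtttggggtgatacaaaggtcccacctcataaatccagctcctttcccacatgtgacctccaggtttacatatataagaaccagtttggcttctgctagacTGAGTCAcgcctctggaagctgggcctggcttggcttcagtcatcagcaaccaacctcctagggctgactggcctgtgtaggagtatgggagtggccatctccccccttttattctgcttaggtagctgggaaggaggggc
*Il6*, chr5:30012864-30013113, plus strand: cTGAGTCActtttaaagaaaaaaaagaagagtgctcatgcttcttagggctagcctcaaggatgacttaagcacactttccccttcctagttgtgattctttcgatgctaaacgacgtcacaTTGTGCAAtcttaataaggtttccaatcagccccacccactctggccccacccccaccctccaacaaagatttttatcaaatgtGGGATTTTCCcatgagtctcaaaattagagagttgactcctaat
The *Il1b* stretch held a TATA box beginning 31 bases before the start. This is the start of the gene in Gencode as well. The *Il1rn* stretch belongs to the most upstream of 3 starts in the table and held an AP-1 match beginning 141 bases before it. The stretches before the other *Il1rn* starts, not printed, held no match to the 5 motifs. Which start the *Il1rn* transcripts of these samples used was not tested. The *Il6* stretch held an AP-1 match 249 bases, a C/EBP-like match 128 bases and an NF-κB match 44 bases before the start. Among 32536 distinct promoters of the same length, 12.3% held a TATA box match, 7.3% an NF-κB match, 6.7% an AP-1 match, 9.6% a C/EBP-like match and 23.4% a PU.1 core match. A match describes the letters of the sequence and is not a measured binding site.

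Among the 9 genes analysed, *Il1rn*, *Il1b*, *Pycard* and *Gsdmd* were increased at CNV d3 and *Il6* and *Nlrp3* were decreased, while *Il1a*, *Il18* and *Casp1* did not pass the test. The test was limma, fitted to log2(normalized counts + 1) of all 27299 genes, with a gene passing at a Benjamini-Hochberg adjusted p under 0.05. Over all genes, 8.29% were increased and 4.57% were decreased by this rule. Among the 9713 genes with a mean of at least 100 normalized counts, which include the 9 analysed here, these shares were 15.3% and 10.8%. With the added threshold of the study for differentially expressed genes (DEG), an absolute log2 fold change above 1.5, *Il1rn* was the only increased and *Il6* the only decreased DEG among the 9, where 3.91% and 1.07% of all genes were such DEG. For *Il1rn*, *Pycard* and *Gsdmd*, every CNV d3 sample lay above every control sample, as for 4.64% of all genes. For *Il6*, every CNV d3 sample lay below every control sample, as for 2.83% of all genes. The median log2 fold change over all genes was 0.15, and 0.06 over the genes with a mean of at least 100. All fold changes given are CNV d3 over control and those from limma are on the log2(normalized counts + 1) scale. For low genes these values depend on the pseudocount, and for genes at 0 in some samples of a group they can lie above or below the fold of the means.

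**Figure D1:**
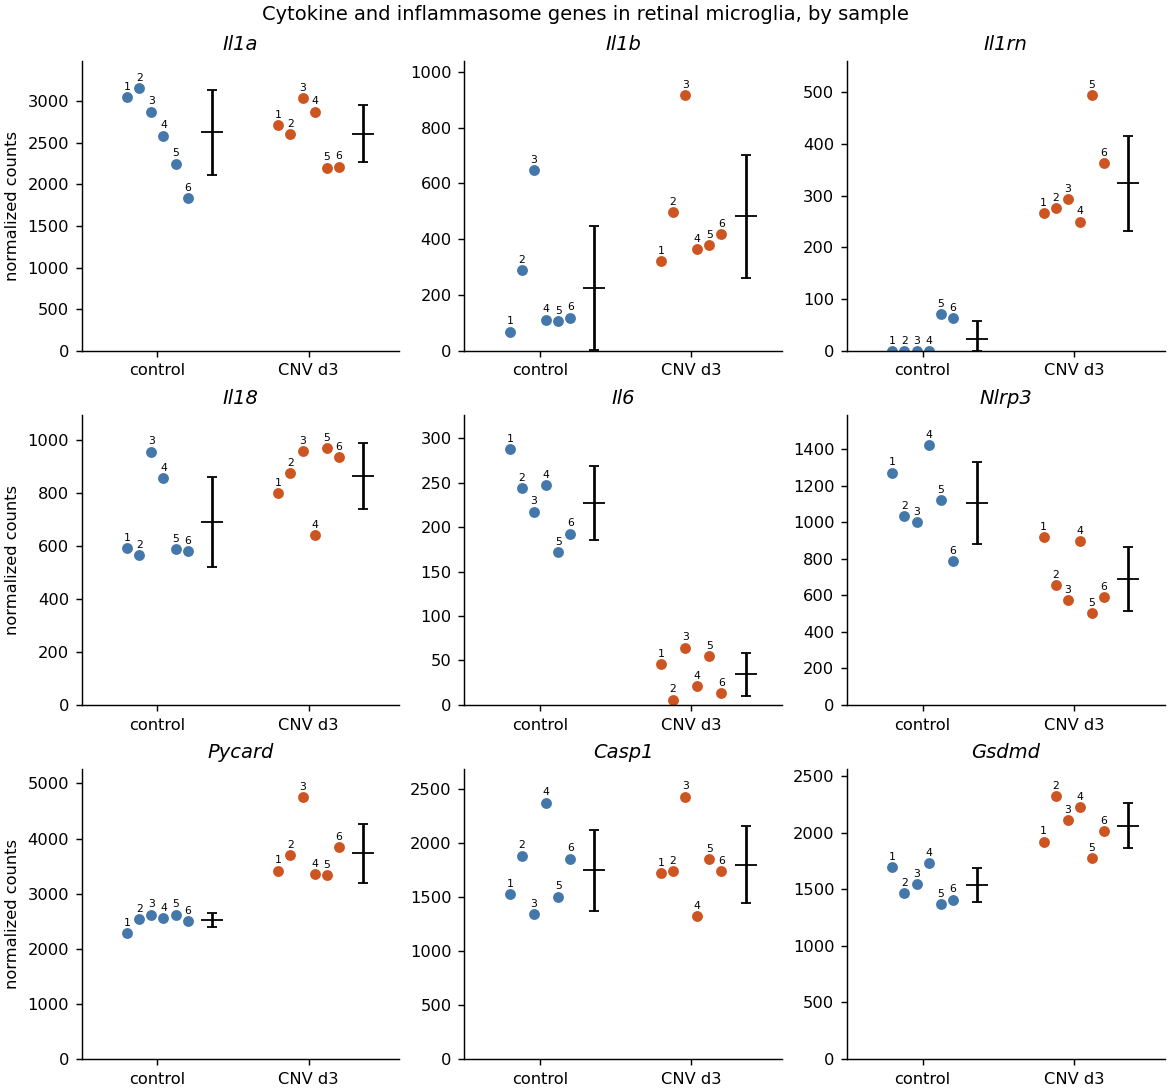
Normalized counts of the 9 analysed genes in each of 6 control samples (blue) and 6 CNV d3 samples (orange), numbered by replicate, with the mean and SD of each group in black, the lower end of the SD bar cut at 0 for *Il1rn*. The *Il1rn*, *Pycard* and *Gsdmd* values at CNV d3 lie above all control values, the *Il6* values lie below them, and the other 5 genes overlap.

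*Il1rn*, the receptor antagonist, showed the largest difference of the set. It was at 0 reads in 4 control samples and at 63.5 and 71.3 normalized counts in control replicates 6 and 5. At CNV d3 the lowest sample had 250.1, the median 284.7 and the highest 494.2 normalized counts. All 6 CNV d3 samples thus lay above the highest control sample, and the control group was split into samples with and without reads. The mean rose from 22.5 ± 34.9 to 323.9 ± 92.2 (SD, n = 6 each) normalized counts, a 14.4-fold difference of the means. The log2 fold change by limma was 6.27 ± 1.14 (SE) with an adjusted p of 0.00193. With 4 control samples at 0, this value depends on the pseudocount. Without control replicate 5, the control sample with the most *Il1rn*, edgeR gave 4.95 (adjusted p = 0.00694) and DESeq2 4.69 (adjusted p = 0.0205), where limma gave 7.10 without this sample (adjusted p = 0.00139). The exact two-sided permutation test over the 924 ways to label the 12 samples gave p = 0.00216, the smallest that 6 samples against 6 allow. *Il1rn* lies on chr2:24336853-24351494 (plus strand), and its exons overlap no other gene. It passed in all 22 alternative settings. Summed without *Fn1*, the monocyte markers were highest in CNV d3 replicates 3 and 6 (6921 and 5929). Replicate 5, with the highest *Il1rn*, came next (4657). With replicates 3 and 6 left out together, the log2 fold change was 6.24 (adjusted p = 0.0451 by limma). The monocyte markers of the remaining CNV d3 samples (2867 or more) still lay above every control sample (at most 2403). This fit thus does not take out such cells, and their part was not tested.

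*Il1b*, the agonist that *Il1rn* counters, was higher at CNV d3 but varied widely within both groups. In control the lowest sample had 68.7, the median 115.4 and the highest 648.6 normalized counts. At CNV d3 the values were 321.4, 398.8 and 915.4. The groups overlapped only through control replicate 3, which lay above 5 of the 6 CNV d3 samples, and replicate 3 was also the highest sample at CNV d3. The mean rose from 223.8 ± 221.8 to 482.6 ± 220.1 (SD, n = 6 each), with a log2 fold change of 1.47 ± 0.46 (SE). The adjusted p by limma was 0.0496, at the edge of the threshold, and the call was lost in 11 of the 12 fits without 1 sample. Without CNV d3 replicate 3 the adjusted p was 0.156, with edgeR it was 0.179 and with DESeq2 0.154. The gene lies on chr2:129364570-129371139 (minus strand) and shares 25 exonic bases with the antisense gene *Il1bos*. As counting did not use the strand, reads there may have been left out of the count.

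*Il1a*, a neighbour of *Il1b* (chr2:129299610-129309972, minus strand), did not pass the test. It lay between 1837 and 3158 normalized counts in control, with a median of 2731, and between 2201 and 3038 at CNV d3, with a median of 2662. The CNV d3 values fell within the range of the control values in every sample. The means of 2626 ± 507.9 and 2609 ± 342.8 (SD, n = 6 each) gave a log2 fold change of 0.00 with a 95% confidence interval of -0.29 to 0.3 (adjusted p = 0.984 by limma). A change of more than 0.3 on the log2 scale in either direction thus lay outside the interval. Exons of *Il1a* share 222 bases with *Gm14023*, and reads there may have been left out of the count.

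*Il18*, the other substrate of caspase-1, ranged from 565.9 to 954.8 normalized counts in control and from 640.5 to 967.6 at CNV d3, with medians of 588.4 and 904.6. Control replicates 3 and 4 lay in the range of the CNV d3 samples, and CNV d3 replicate 4 was the lowest of its group. The log2 fold change was 0.34 (95% confidence interval -0.02 to 0.7) and did not pass (adjusted p = 0.223 by limma, exact permutation p = 0.0563). *Il18* lies on chr9:50554827-50581840 (plus strand).

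The balance of paired transcripts was compared directly in each sample as the log2 ratio of their normalized counts, each with 1 added. For *Il1b* over *Il1rn*, agonist over antagonist, the ratio lay between 6.12 and 9.34 in control replicates 1 to 4, where *Il1rn* was at 0, and at 0.57 and 0.90 in control replicates 5 and 6. At CNV d3 it lay between -0.38 and 1.64, close to equal normalized counts. These are not scaled for exon length, which was 1907 bases for *Il1b* and 5535 for *Il1rn*. Per kb of exon, *Il1b* was at 253 ± 115 and *Il1rn* at 58.5 ± 16.7 normalized counts at CNV d3 (SD, n = 6 each). These lengths join all annotated exons of a gene, so a level per kb is too low where shorter transcripts were in use. The balance per kb is thus not settled by these values. The groups overlapped, since the 2 control samples with *Il1rn* reads fell within the range of CNV d3. The mean fell by 4.80 on the log2 scale, from 5.32 ± 3.72 to 0.52 ± 0.68 (SD, n = 6 each; exact permutation p = 0.0173, adjusted p = 0.026 over 3 ratios). With *Il1rn* at 0 in 4 control samples, this size depends on the pseudocount, and it was -3.28 with a pseudocount of 5 and -5.47 with 0.5, each with the same adjusted p. For *Il1a* over *Il1b*, the ratio fell by 1.46, from 3.98 ± 1.12 to 2.52 ± 0.48 (SD, n = 6 each), with the same exact permutation p and adjusted p. As *Il1a* had a log2 fold change of 0, this is the *Il1b* change (1.47 by limma) with its sign turned and not a separate result. The *Il1b* call was lost in 16 of 22 alternative settings. Both ratios reached an adjusted p of 0.0519 in the exact permutation test without control replicate 1 or without CNV d3 replicate 3. For *Il18* over its binding protein *Il18bp*, the difference of -1.19 did not pass (adjusted p = 0.351, exact permutation test).

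**Figure D2:**
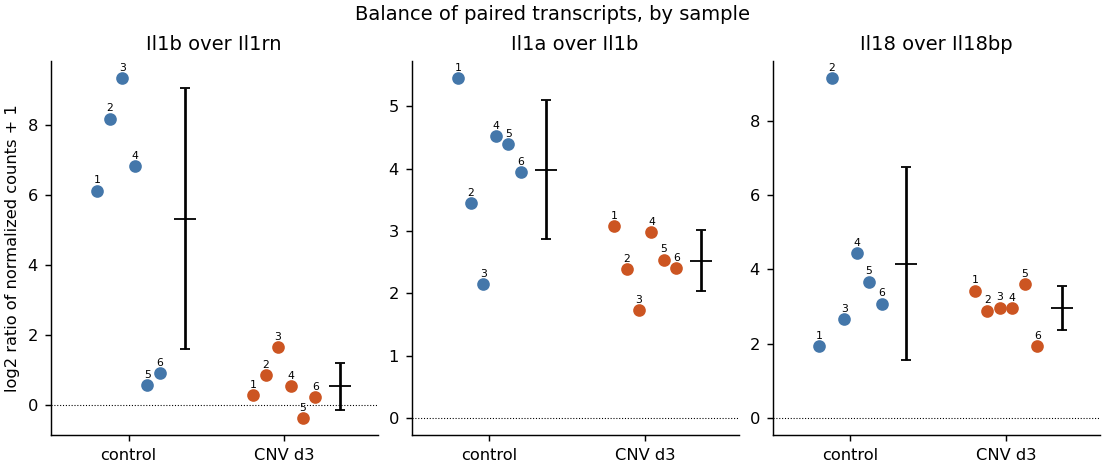
Log2 ratio of 3 pairs of transcripts in each sample (numbered by replicate), with the mean and SD of each group in black. The *Il1b* over *Il1rn* ratio of control replicates 1 to 4 lies above 6, while control replicates 5 and 6 and all CNV d3 samples lie below 2.

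*Il6* was the gene of the set that fell most. In control the lowest sample had 171.7, the median 230.6 and the highest 287.7 normalized counts. At CNV d3 the lowest sample had 5.85, the median 33.3 and the highest 64.4. The groups did not overlap, and the deeper libraries were those with the lower values. The mean fell from 226.8 ± 41.8 to 34.2 ± 24.1 (SD, n = 6 each), 6.63-fold lower. The log2 fold change was -3.07 ± 0.52 (SE) with an adjusted p of 0.00116 by limma, and -2.75 with edgeR (adjusted p = 0.00226) and -2.8 with DESeq2 (adjusted p = 4.85e-07). It passed in all 22 alternative settings, and the exact permutation p was 0.00216. The values of the CNV d3 samples rested on between 7 and 72 reads, so their order among themselves carries the counting error of such numbers. *Il6* lies on chr5:30013114-30019981 (plus strand), with no overlapping gene.

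Of the inflammasome, the adaptor rose, the sensor fell and the protease did not pass the test. *Pycard*, which encodes the adaptor ASC, lay between 2280 and 2618 normalized counts in control (median 2550) and between 3334 and 4746 at CNV d3 (median 3562). The control samples lay close together, with a coefficient of variation of 4.98%, and every CNV d3 sample lay above them. The mean rose from 2521 ± 125.6 to 3734 ± 536.6 (SD, n = 6 each), with a log2 fold change of 0.56 ± 0.10 (SE; adjusted p = 0.00149 by limma). It passed in all 22 alternative settings. Without CNV d3 replicates 3 and 6, which had the highest monocyte markers, the log2 fold change was 0.45 (adjusted p = 0.00172 by limma). The remaining CNV d3 samples also lay above all control samples in these markers without *Fn1*. This fit thus does not take out such cells, and their part was not tested. *Pycard* lies on chr7:127989708-127993867 (minus strand) and shares 485 exonic bases with *Gm45205*.

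*Gsdmd*, the pore-forming substrate, rose from 1535 ± 149.3 to 2061 ± 201.5 (SD, n = 6 each) normalized counts. The control samples lay between 1370 and 1728 and the CNV d3 samples between 1773 and 2322, so the groups were separated by a narrow gap. The log2 fold change was 0.42 ± 0.10 (SE; adjusted p = 0.0126 by limma, exact permutation p = 0.00216), and it passed in all 22 alternative settings. *Gsdmd* lies on chr15:75862327-75867408 (plus strand).

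*Nlrp3*, the sensor, was lower at CNV d3. In control it ranged from 786.4 to 1423 normalized counts (median 1076) and at CNV d3 from 501.4 to 919.8 (median 623.1). The groups overlapped through control replicate 6, which lay below CNV d3 replicates 1 and 4. The mean fell from 1106 ± 222.2 to 689.6 ± 176.5 (SD, n = 6 each), with a log2 fold change of -0.69 ± 0.18 (SE; adjusted p = 0.0211 by limma). With edgeR the adjusted p was 0.0494 and with DESeq2 0.0068. The call was lost in 6 of the 12 fits without 1 sample, in which the adjusted p lay between 0.0516 and 0.0626, namely without control replicate 1 or 4 or without CNV d3 replicate 2, 3, 5 or 6. Without CNV d3 replicates 3 and 6 the log2 fold change was -0.59 (adjusted p = 0.154). *Nlrp3* lies on chr11:59541568-59566956 (plus strand).

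*Casp1*, the protease, ranged from 1339 to 2375 normalized counts in control and from 1323 to 2431 at CNV d3. The groups covered the same range, and the means were 1748 ± 373.5 and 1802 ± 358.5 (SD, n = 6 each). The log2 fold change was 0.05 with a 95% confidence interval of -0.29 to 0.38 (adjusted p = 0.856 by limma). *Casp1* lies on chr9:5298517-5307265 (plus strand).

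**Figure D3:**
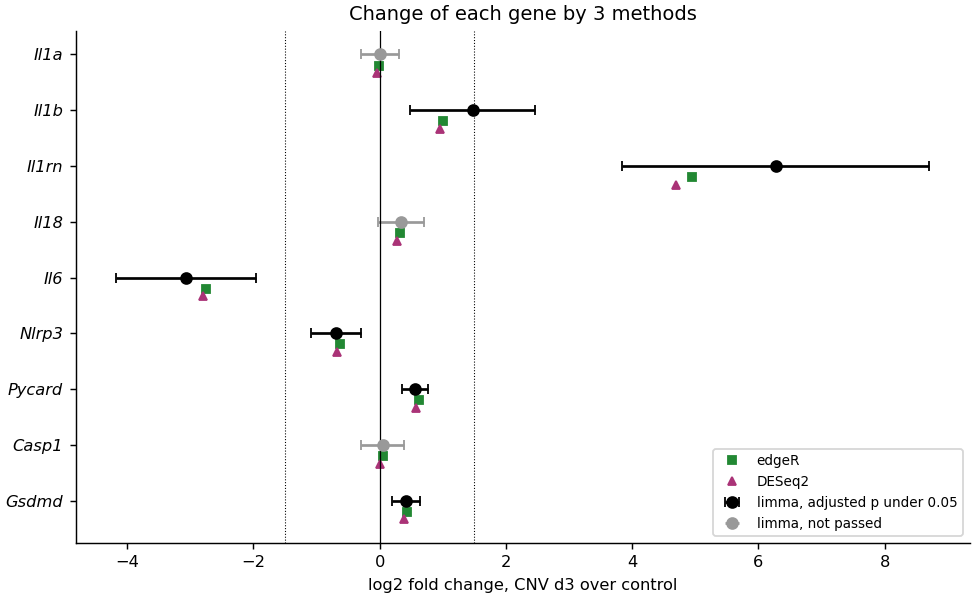
Log2 fold change of each gene at CNV d3 over control by limma with its 95% confidence interval (circles, black where the adjusted p was under 0.05), by edgeR (squares) and by DESeq2 (triangles), the last 2 on 11 samples. Dotted lines mark the DEG threshold of 1.5 in both directions, which only *Il1rn* and *Il6* pass by all 3 methods.

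CNV d3 replicate 4 was the only CNV d3 sample listed in 2 parts, as all control samples were. It had 250.1 normalized counts of *Il1rn*, 20.8 of *Il6*, 3356 of *Pycard* and 2227 of *Gsdmd*, each on the side of the other CNV d3 samples. Its *Nlrp3* value of 896.7 was the next to highest of its group and lay above control replicate 6 (786.4), and its *Il1b* value of 364.4 lay below control replicate 3 (648.6). A single sample cannot separate the listing in parts from the group, and for the other CNV d3 samples these cannot be told apart.

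Levels of different genes were compared per kilobase of exon, with all annotated exons of a gene joined. This length was 3800 bases for *Pycard*, 5535 for *Il1rn* and 1031 for *Il18*. Which transcripts were in use was not tested. Where they are shorter than the joined exons, the level per kb is too low, so the order of genes depends on these lengths. In control, *Il1a* was the highest of the set with 1330 ± 257 normalized counts per kb (SD, n = 6), followed by *Casp1* with 1170 ± 250. *Il1a* lay above *Casp1* in 4 of 6 control samples, so their order did not exceed the spread. *Il18* (668 ± 165), *Pycard* (663 ± 33.0) and *Gsdmd* (646 ± 62.8) came next with levels that did not differ beyond their spread. *Nlrp3* followed with 273 ± 54.8 per kb and was below *Gsdmd* in 6 of 6 control samples. *Il1b* (117 ± 116) and *Il6* (93.4 ± 17.2) could not be ordered, with *Il1b* above *Il6* in 2 of 6 samples. *Il1rn* was the lowest with 4.06 ± 6.30. Of the inflammasome genes, the sensor thus had the lowest level per length in control.

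At CNV d3 the order per kb was *Il1a* (1320 ± 174), *Casp1* (1200 ± 240), *Pycard* (983 ± 141), *Gsdmd* (867 ± 84.8) and *Il18* (836 ± 122), of which *Casp1* lay above *Pycard* in 6 of 6 samples. *Il1a* lay above *Casp1* in 3 of 6 samples and *Gsdmd* above *Il18* in 3 of 6, so these neighbours did not differ beyond their spread. *Il1b* (253 ± 115) and *Nlrp3* (170 ± 43.5) followed, with *Il1b* the higher in 4 of 6 samples. *Il1rn* (58.5 ± 16.7) lay above *Il6* (14.1 ± 9.94) in 6 of 6 CNV d3 samples, while *Il6* lay above *Il1rn* in 6 of 6 control samples. The antagonist and *Il6* thus changed places at the lower end of the order.

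**Figure D4:**
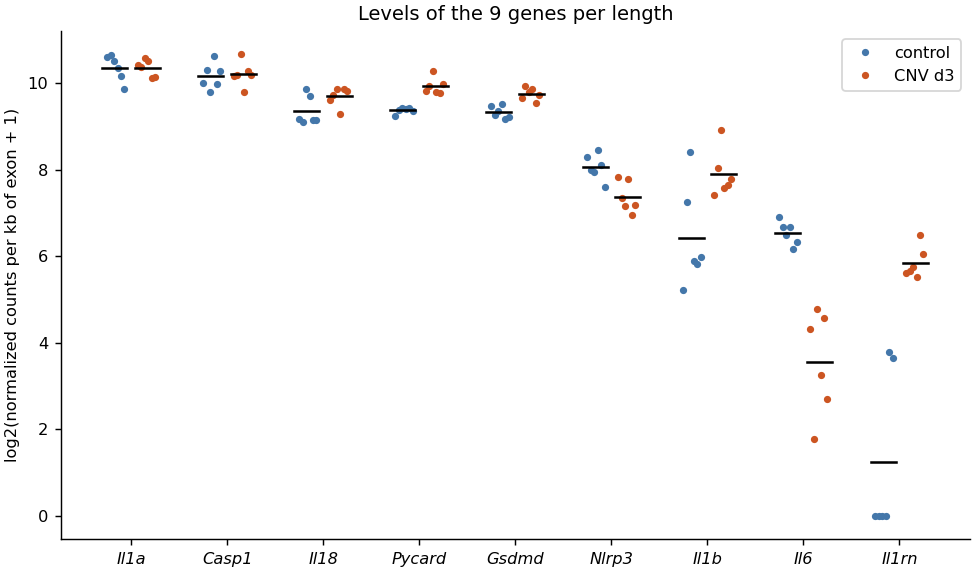
Level of the 9 genes as log2(normalized counts per kb of exon + 1) in each control sample (blue) and CNV d3 sample (orange), ordered by the control mean, with the mean of each group as a black line. *Il1a*, *Casp1*, *Il18*, *Pycard* and *Gsdmd* lie above 9 in every sample, and *Il6* and *Il1rn* change places at the lower end.

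The pathways around these genes were described with 7 lists, of which 79 of 96 genes were analysed. In all, 14 of the 79 were increased and 10 were decreased by limma at an adjusted p under 0.05, with 55 that did not pass, beside 8.29% and 4.57% of all genes. The median log2 fold change of the 79 genes was 0.29. Among the 9713 genes with a mean of at least 100 normalized counts, 15.3% were increased and 10.8% decreased. The count of 14 fell to 7 without CNV d3 replicate 3 or replicate 5, to 8 without replicate 6 and to 9 without replicate 4. Of the 24 genes that passed, 11 did so in all 22 alternative settings, and *Mefv* in the 21 that gave it a value. Only *Sigirr* and *Mefv* also exceeded a log2 fold change of 1.5 in either direction. Several genes named below share exonic bases with another gene, where reads may have been left out of the count, among them *Ctsb* (774 bases, *Fdft1*), *Txnip* (606, *Gm15441*), *Tyk2* (554, *1700084C06Rik*) and *Il16* (1368, *2310044K18Rik* and *Stard5*).

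Among 11 other ligands and receptors of the IL-1 family, 1 was increased and 1 was decreased, and the median log2 fold change was 1.22, with several genes at 0 in some control samples. *Sigirr*, an orphan receptor known to dampen IL-1 and Toll-like receptor signals, was at 0 in 4 control samples and at 39.7 and 202.0 normalized counts in control replicates 1 and 4. At CNV d3 it lay between 80.3 and 178.1, below the highest control sample in all 6 samples. The limma log2 fold change of 4.84 (adjusted p = 0.0189) rested on the 4 control samples at 0, and it was 1.47 with edgeR (adjusted p = 0.361). *Il1rap*, the accessory chain that the IL-1 receptor needs to signal, fell from 743.8 ± 140.1 to 464.3 ± 117.1 (SD, n = 6 each), with a log2 fold change of -0.70 (adjusted p = 0.0254 by limma). The call was lost in 7 of 22 alternative settings. *Il1rl2*, the receptor of IL-36, had the highest mean of the list and gave 2049 ± 594 in control and 2056 ± 300.0 at CNV d3 (SD, n = 6 each). The receptor *Il1r1* was at 97.0 ± 97.2 and 157.4 ± 93.6 normalized counts (adjusted p = 0.295 by limma).

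Of 15 genes of IL-1 receptor and Toll-like receptor signalling, *Irak1* and *Map3k7* (the kinase TAK1) were increased and *Irak2* and *Peli1* were decreased, with a median log2 fold change of 0.07. *Irak1* rose from 1374 ± 263 to 2073 ± 154.7 (SD, n = 6 each) and *Irak2* fell from 3725 ± 539.8 to 2258 ± 289.9, both without overlap of the groups. The log2 fold changes were 0.62 (adjusted p = 0.0075 by limma) and -0.72 (adjusted p = 0.00094). The *Map3k7* call was lost in 4 of 22 alternative settings, with an adjusted p of up to 0.111, and that of *Irak1* in 1 (0.052). *Peli1*, an E3 ubiquitin ligase of this pathway and the gene of the list with the highest mean, fell from 7421 ± 1538 to 3849 ± 685.5 (log2 fold change -0.94, adjusted p = 0.000708 by limma). The adaptor *Myd88* was at 1887 ± 254.9 and 2267 ± 158.0 normalized counts and did not pass (adjusted p = 0.11).

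Of 10 other inflammasome sensors, only *Mefv*, the gene of pyrin, passed by limma and by edgeR, and DESeq2 also called *Naip5* (log2 fold change 0.71, adjusted p = 0.0459). *Mefv* was at 0 reads in all 6 control samples and had between 0.87 and 35.7 normalized counts at CNV d3, the lowest being 1 read. The mean of 15.2 was 2.55-fold the floor of 3 reads in the shallowest control sample, and 5 of 6 CNV d3 samples lay above this floor. The floor covers counting error only, and replicates differed by more than that, so this value is not a lower bound of the difference. The adjusted p by limma was 0.003. The highest *Mefv* value was that of CNV d3 replicate 6 and the next that of replicate 3, which also had the highest monocyte markers. *Naip2*, a sensor of bacterial proteins and the highest of the list, has close paralogs with which it may share reads. It was at 2513 ± 488.3 and 2682 ± 252.7 (SD, n = 6 each; adjusted p = 0.604 by limma). The DNA sensor *Aim2* was at 1162 ± 314.3 and 1122 ± 176.3 (adjusted p = 0.971).

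Among 14 partners of the inflammasome, caspases and pore proteins, 3 rose and 3 fell, with a median log2 fold change of 0.12. *Ctsb*, the lysosomal protease cathepsin B and by far the highest gene of all lists, rose from 121164 ± 7636 to 173259 ± 17591 normalized counts (SD, n = 6 each; log2 fold change 0.51, adjusted p = 0.000251 by limma). *Nek7*, the kinase that NLRP3 binds when it assembles, rose by 0.38 on the log2 scale (adjusted p = 0.0304), and the ATP receptor *P2rx4* rose by 0.40 (adjusted p = 0.00731). The *Nek7* call was lost in 8 of 22 alternative settings, with an adjusted p of up to 0.164. *Txnip*, a thioredoxin binding protein described as a partner of NLRP3, fell from 14759 ± 1852 to 7874 ± 1009 (log2 fold change -0.91, adjusted p = 6.79e-05 by limma), with no overlap of the groups. Of the other pore or membrane rupture proteins, *Gsdme* fell by 0.87 (adjusted p = 0.0192) and *Ninj1* fell by 0.52 on the log2 scale (adjusted p = 0.0144). The *Gsdme* call was lost in 6 of 22 alternative settings, with an adjusted p of up to 0.101, and the difference between *Gsdmd* and *Gsdme* was not tested. The ATP receptor *P2rx7* was at 6139 ± 1148 and 5241 ± 770.0 (adjusted p = 0.389 by limma), and the non-canonical caspase gene *Casp4* was at 412.7 ± 64.5 and 508.3 ± 92.3 (adjusted p = 0.308).

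In the IL-6 pathway, 5 of 12 genes rose and 1 fell, with a median log2 fold change of 0.40. The gene that fell was *Il6st*, the shared signalling receptor gp130 and the highest of the list, from 21011 ± 2968 to 11165 ± 2234 normalized counts (SD, n = 6 each; log2 fold change -0.92, adjusted p = 0.00034 by limma). The specific receptor *Il6ra* was at 3639 ± 385.7 and 3665 ± 818.0 (adjusted p = 0.944). The genes that rose were the kinases *Jak2* and *Tyk2*, the transcription factor *Stat3*, its feedback inhibitor *Socs3* and the receptor *Lifr*. *Socs3* had between 492.1 and 1294 normalized counts in control and between 1873 and 3638 at CNV d3, without overlap (log2 fold change 1.42, adjusted p = 0.000743 by limma). *Stat3* rose from 5020 ± 288.0 to 6724 ± 517.1 (log2 fold change 0.42, adjusted p = 0.00175), also without overlap. The cytokine *Il6* and its receptor *Il6st* were thus lower at CNV d3 while *Socs3* was higher. *Socs3*, *Stat3*, *Il6st* and *Il6* passed in all 22 alternative settings, while the call was lost in 9 for *Lifr* (adjusted p of up to 0.139), in 5 for *Jak2* (up to 0.145) and in 1 for *Tyk2* (up to 0.0501).

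Of the 5 genes of the IL-10 family and its receptors, none passed by limma with adjustment or by edgeR, while 2 had an unadjusted p under 0.05 by limma (*Il10rb* and *Il20rb*) and 1 passed with DESeq2. *Il10ra*, the IL-10 receptor chain with the highest mean of the list, was at 14834 ± 1148 in control and 16754 ± 2410 at CNV d3 (SD, n = 6 each; adjusted p = 0.323). *Il10rb* was at 5283 ± 311.9 and 4341 ± 609.3 (adjusted p = 0.0577).

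Of 12 other cytokines of myeloid cells, 2 rose and 3 fell by limma. For *Il12b* the methods disagreed. It did not pass by limma (log2 fold change 3.88, adjusted p = 0.0918). Without control replicate 5, edgeR gave 8.96 (adjusted p = 0.00118) and DESeq2 8.06 (adjusted p = 4.01e-09). *Il12b* was at 0 in 5 control samples, with a highest control value of 442.7 normalized counts, and lay between 13.3 and 169.8 at CNV d3. *Tnf* rose from 147.1 ± 93.7 to 346.3 ± 180.2 (SD, n = 6 each; log2 fold change 1.35, adjusted p = 0.0402 by limma) and the growth factor *Csf1* from 738.7 ± 448.9 to 1692 ± 299.6 (log2 fold change 1.43, adjusted p = 0.0154). The *Tnf* call was lost in 14 of 22 alternative settings and that of *Csf1* in 6. The 3 cytokines that fell did so without overlap of the groups. They were *Il15*, which supports lymphocytes (649.0 ± 105.6 to 307.0 ± 64.7), *Il16* (4216 ± 726.7 to 2142 ± 440.5) and *Ebi3*, a subunit of IL-27 (881.6 ± 125.9 to 482.8 ± 112.2), with log2 fold changes of -1.09, -0.98 and -0.89. The adjusted p by limma was 0.000927, 0.000478 and 0.00293. *Tgfb1* had the highest mean of this list, with 3454 ± 348.2 and 3367 ± 487.5 normalized counts (adjusted p = 0.801).

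**Figure D5:**
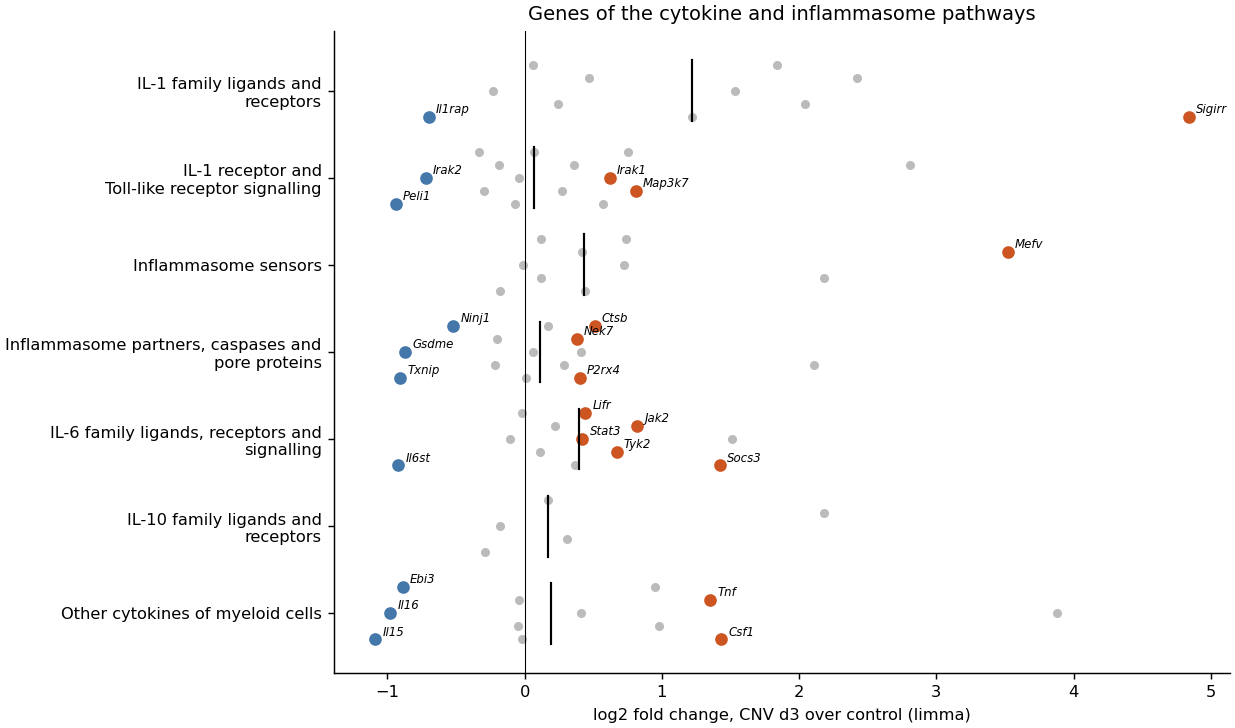
Log2 fold change (CNV d3 over control, limma) of each of the 79 genes in 7 lists, with the genes that passed an adjusted p of 0.05 in orange (increased, 14) or blue (decreased, 10), the others in grey and the median of each list as a black line. Points are spread vertically only for legibility. Of the genes that passed, *Sigirr* and *Mefv* lie farthest to the right, and those of the IL-6 list are *Il6st* to the left of 0 and 5 genes to the right.

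Among themselves, the 9 genes varied together in some pairs and in opposite directions in others. Over the 12 samples, with each gene centred on its group mean, Pearson's r between pairs of the 9 lay between -0.79 (*Il1a* and *Il1rn*) and 0.56 (*Il1b* and *Pycard*). The samples shared sequencing depth and cell makeup, and these values are descriptions. On the log2(normalized counts + 1) scale, *Il1rn* was at 0 in 4 control samples and at 6.18 and 6.01 in control replicates 5 and 6. At CNV d3 it lay between 7.97 and 8.95. The r values of *Il1rn*, here and below, thus rest largely on the split of the control samples. The gene closest to each was searched by the same measure among 9423 protein-coding genes with a mean of at least 100 normalized counts, so that high values occur among many genes. The closest were *Ifi205*, *Camkk1* and *Spsb1* for *Il1a* (r of 0.85 to 0.90), *Esco2*, *Sergef* and *Dnajc19* for *Il1b* (0.91 to 0.92), *Eci2*, *Hsdl2* and *Ube2b* for *Il1rn* (0.90 to 0.92) and *Prelid2* and *H1f2* for *Il18* (0.92 to 0.93). For *Il6* they were *Tmx1*, *Hmox1* and *5730455P16Rik* (0.83 to 0.85). For the inflammasome they were *Acp2*, *Siglece* and *Gpsm1* for *Nlrp3* (0.88 to 0.91), *Atpif1*, *Ywhaz* and *Ywhae* for *Pycard* (0.84 to 0.86), *Rap1a*, *Zfp551* and *S100a1* for *Casp1* (0.88 to 0.96) and *Alkbh7*, *Sdad1* and *Abcc4* for *Gsdmd* (0.86 to 0.88). None of these genes belongs to the lists above.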

How the data were processed

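Retinal microglia of 6 CNV d3 and 6 control samples were measured by RNA-seq. The groups and replicate numbers came from the labels, and samples listed in 2 parts counted as 1 sample. Full-length cDNA had been amplified by PCR without molecular identifiers. The authors mapped reads with STAR 2.7.2b to GRCm38.p6 with Gencode M25, counted them per gene with featureCounts 1.6.4 at default settings, which use no strand and leave out reads shared by genes, and removed genes without reads. The signal in the deposited table, per the file headers and the methods, is a read count scaled by a DESeq2 size factor. Deposited group means, log2 fold changes and adjusted p-values were not used. In every sample 100% of values were whole multiples of the value of 1 read (tolerance 0.01), so reads could be recovered. For control replicate 5, whose size factor is close to 1, recovered reads gave its depth but entered no test, and edgeR, DESeq2 and voom were run on 11 samples.

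The main test was limma 3.58.1 (R 4.3.3) with a variance trend on log2(normalized counts + 1), with a pseudocount of 1 and no filter, over 27299 genes with Benjamini-Hochberg adjustment. Alternatives were edgeR 4.0.16, DESeq2 1.42.0, voom, TMM scaling, pseudocounts of 0.5 and 5, a filter of 10 normalized counts in 6 samples, a block for the replicate number and the omission of each sample. Leaving out control replicates 3 (highest photoreceptor markers) and 6 (shallowest) together, or CNV d3 replicates 3 and 6 together, was chosen after seeing the data. Ratios were tested by two-sided exact permutation (SciPy 1.17.1). A floor of 3 reads was between 2.22 and 5.96 normalized counts and covers counting error only. Every pair of replicates among the 11 samples differed by more than counting noise (lowest chi-square over degrees of freedom, 32.49).

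The members and lists were chosen with earlier results of these data known. Named are all members, list genes past both DEG thresholds and the gene with the highest mean of each list. Also named are the 3 protein-coding genes closest to each member, of which 1 is not reported here, and 1 listed monocyte marker was left out. Other list genes were named after their values were seen. Coordinates and exon lengths came from Gencode M21 on GRCm38 (27238 of 27299 genes matched), and promoters from RefSeq on GRCm38.p6, which held 8 of the 10 members.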

Additional observations from a re-analysis of the deposited data

Results flagged for a closer look

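Among 24 groups of 6 values tested (the 9 genes and 3 ratios in each of control and CNV d3), 4 held a sample whose gap to the nearest other sample exceeded the 95% critical value of Dixon's test, as a share of the range of its group. Chance alone flags about 1 in 20 groups in this way. *Il1b* in CNV d3 replicate 3 was 915.4 normalized counts, with a gap of 0.705 of the range above the other 5 samples. *Pycard* in the same sample was 4746 normalized counts, with a gap of 0.637. This sample also had the highest summed monocyte markers without *Fn1* (6921, with 2867 to 5929 in the other CNV d3 samples). The part of these cells in both values was not tested. *Pycard* in control replicate 1 was low at 2280 normalized counts (gap 0.669). The log2 ratio of *Il18* over *Il18bp* was 9.15 in control replicate 2, where *Il18bp* was at 0 reads (gap 0.653).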

How the results depend on the processing

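*Il1rn*, *Il6*, *Pycard* and *Gsdmd* kept their direction and passed in all 22 alternatives, with log2 fold changes of 4.69 to 7.10, -3.33 to -2.68, 0.45 to 0.62 and 0.39 to 0.47. *Nlrp3* passed in 15 (-0.84 to -0.59) and *Il1b* in 6 (0.96 to 1.87). *Il1a* and *Casp1*, near 0 in the main comparison, changed sign. *Il1a* was -0.01 with edgeR, -0.05 with DESeq2, -0.04 with voom, -0.08 without control replicates 3 and 6 and between -0.09 and 0.06 without 1 sample. *Casp1* was -0.01 without control replicates 3 and 6, -0.06 without CNV d3 replicates 3 and 6 and between -0.04 and 0.14 without 1 sample. *Tgfb1* was 0.00 with voom, 0.02 without CNV d3 replicates 3 and 6 and between -0.10 and 0.01 without 1 sample, *Naip2* between -0.01 and 0.16 and *Il1rl2* between -0.15 and 0.14. *Mefv* gave no value under the filter. With DESeq2, 2130 genes were decreased and 579 were decreased DEG, and with voom 485 were decreased DEG, against 1247 and 293. Without CNV d3 replicates 3 and 6, 1124 genes were increased, 688 decreased, 553 increased DEG and 176 decreased DEG, with 1 decreased gene of the set (*Il6*), 6 increased list genes and an *Il1a* over *Il1b* difference of -1.24 (adjusted p = 0.1, exact permutation). The cause was not tested, and without control replicates 3 and 6 there were 2033 increased and 1324 decreased genes and 15 increased list genes. Without control replicates 3 and 6, and without control replicate 3 alone, 2 of the set were increased DEG (*Il1rn* and *Il1b*). Without 1 sample, the set had 1 to 2 decreased genes and 1 to 2 increased DEG and the lists 7 to 14 increased genes (7 without CNV d3 replicate 3 or 5, 8 without 6 and 9 without 4). The *Il1b* over *Il1rn* difference then lay between -5.75 and -4.00 (-3.28 with a pseudocount of 5, -5.47 with 0.5) and that of *Il1a* over *Il1b* between -1.83 and -1.17. Same-numbered samples of both groups correlated at -0.053 to 0.071 in their deviations from the group means. Such low values show no pairing by number but cannot exclude one, and *Il1b* was highest in replicate 3 of both groups. With the replicate number as a block, 1885 genes were increased and 975 decreased, and the same numbers of the set were called (4 increased, 2 decreased). The adjusted p of *Il1b* by limma was then 0.00775. The control samples are shallower, and at a floor of 3 reads the shallowest of them could not show under 5.96 normalized counts.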
